A study of Rattus norvegicus with 9 samples.

Results

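The genes described here are those of the rat major histocompatibility complex (MHC) and of the machinery that loads it. They are every row of the deposited gene table whose symbol starts with RT1-, the rat MHC prefix, together with 13 genes of antigen processing, regulation and costimulation. The rule finds 57 of the 28343 genes in the table: 34 class I genes, 10 class II genes, 8 genes of the class I pathway, 2 of the class II pathway (Cd74 and Ciita), the costimulatory ligands Cd80 and Cd86, and the lipid-presenting molecule Cd1d1. They were measured by RNA-seq in microglia, the resident macrophages of the retina, which were sorted as CD11b-positive cells from papain-digested whole retinas of Dark Agouti rats. The control group is 5 libraries (numbers 1, 3, 4, 5 and 6) from rats that received citrate buffer. The diabetic group is 4 libraries (numbers 1, 2, 4 and 5) from rats given streptozotocin, a toxin of the insulin-producing beta cells, at 55 mg/kg when they were 8 to 10 weeks old, and those whose blood glucose went above 30 mmol/l were given 2 units of insulin. All rats were fasted for 12 hours before the injection, and retinas were taken 4 weeks after it. The study compared early diabetes with normal blood glucose. The labels do not say whether each library is 1 rat, so p-values measure the spread between libraries.

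MHC class I molecules present peptides from inside the cell to cytotoxic T cells. The peptides are cut by the proteasome, carried by the Tap1/Tap2 transporter, loaded with the help of tapasin (Tapbp) and held by a heavy chain paired with beta-2 microglobulin (B2m). MHC class II molecules present peptides taken up from outside to helper T cells. The invariant chain Cd74 guards their groove until DM molecules exchange it for peptide in the endosome, and DO molecules restrain DM. Nlrc5 is the master coactivator of class I genes and Ciita that of class II genes. Resting microglia are known for low class II expression. The RT1 region is highly polymorphic. Dark Agouti rats carry another RT1 haplotype than the Brown Norway rat behind the reference genome, so reads can be lost or can be shared between similar RT1 genes, and this limits every RT1 level below.

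The promoters of class I and class II genes carry different known control elements, and stretches that hold them are shown for the genes described below; the classes share some of the letters. They come from RefSeq promoters of the GRCr8 build, from 250 bases before to 50 bases after each start, in which 46 of the 57 members were found by symbol. Each motif was searched on both strands. Class II promoters are known for an X box and a Y box, bound by the RFX and NF-Y complexes on which Ciita assembles. In the following 60-base windows the capitals mark AGCAAC, the centre of an X box, and TGATTGG, a Y box (the latter holds the CCAAT box on its other strand).
RT1-Da (chr20:4515320-4515379, plus strand): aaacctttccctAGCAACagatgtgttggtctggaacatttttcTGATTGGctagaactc
RT1-Db1 (chr20:4560225-4560284, minus strand): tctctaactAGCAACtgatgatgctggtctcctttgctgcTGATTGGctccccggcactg
RT1-DOb (chr20:4627590-4627649, minus strand): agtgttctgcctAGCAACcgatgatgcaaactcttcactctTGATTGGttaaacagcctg
RT1-Ba (chr20:4576967-4577026, plus strand): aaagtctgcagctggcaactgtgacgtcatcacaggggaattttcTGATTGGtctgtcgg
RT1-Bb (chr20:4604167-4604226, minus strand): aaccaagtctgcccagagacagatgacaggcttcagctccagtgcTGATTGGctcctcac
TGATTGG was found in 9 of the 10 matched promoters of the class II side, in 12 of 26 class I genes and in 7.06% of all 33469 promoters of 300 bases. AGCAAC was found in 7 of those 10, in 4 of the 26 and in 14.7% of all promoters. In RT1-Ba and RT1-Bb only TGATTGG was found. The longer X box letters CCTAGNNAC were found in 3 of the 10 (Cd74, RT1-DOb and RT1-Da) in 2 of the 26 class I genes and in 4.34% of all promoters. CCAAT was found in 10 of the 10, in 17 of the 26 and in 37.5% of all promoters.

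Class I promoters are known for an enhancer that binds NF-kappaB, followed by an element that binds interferon regulatory factors. In the next 5 windows of 50 bases the capitals mark a palindromic kappaB site (the capitals on the left) and, on the other strand, the interferon element GAAGTGAAA. RT1-CE4 holds only the former of these. In RT1-S3 the capitals mark an interferon-stimulated element, GAAA and again GAAA with any 2 bases between, on the other strand.
RT1-A1 (chr20:4907074-4907123, plus strand): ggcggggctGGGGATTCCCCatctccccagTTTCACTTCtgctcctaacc
RT1-A2 (chr20:4872688-4872737, plus strand): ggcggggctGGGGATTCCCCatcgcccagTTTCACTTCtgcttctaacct
RT1-CE16 (chr20:3265534-3265583, minus strand): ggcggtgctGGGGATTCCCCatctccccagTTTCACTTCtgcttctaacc
RT1-CE4 (chr20:3509310-3509359, minus strand): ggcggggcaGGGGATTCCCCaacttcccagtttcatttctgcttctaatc
RT1-S3 (chr20:2675403-2675452, plus strand): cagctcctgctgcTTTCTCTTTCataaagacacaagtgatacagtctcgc
The kappaB letters were found in 6 of 26 class I promoters (RT1-A1, RT1-A2, RT1-A3, RT1-CE10, RT1-CE16 and RT1-CE4) and in 0.0627% of all promoters. GAAGTGAAA was found in 8 of the 26 and in 0.469% of all. The spaced GAAA pair of the interferon-stimulated element was found in 6 of the 7 matched class I pathway genes (B2m, Tap1, Tap2, Tapbp, Psmb8 and Psmb10), in 3 of the 26 class I genes, in 0 of the 10 on the class II side and in 3.92% of all promoters. These matches are letters in a window and not measured binding sites. The letters for the X box centre, the Y box, the kappaB site and GAAGTGAAA were chosen after the sequences had been read.

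Total counts ran from 6228756 (diabetic 4) to 11332823 (control 3) per library. Microglia markers (8 genes, among them Cx3cr1, P2ry12 and Tmem119) summed to 24000 to 27010 CPM (counts scaled to a common library size with TMM factors) in control and 22430 to 23660 CPM in diabetic libraries. Controls 4 and 6 stood apart on an 11-gene list of cell isolation response genes, with 19150 and 25100 CPM against 3643 to 8412 CPM in the other controls and 11010 to 16650 CPM in diabetic libraries. Results that turn without those 2 libraries are given both ways.

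Of the 57 members 38 had enough counts to be tested: 20 class I genes, 6 class II genes, 7 of 8 class I pathway genes, and Cd74, Ciita, Cd80, Cd86 and Cd1d1. Of the 19 that were not, 8 had 0 counts in every library, and no library had more than 12 counts of any of them. No member passed an adjusted p of 0.05 in edgeR's quasi-likelihood test over all genes, where 8 of 11748 genes (0.0681%) passed. The DESeq2 Wald test passed 2 members against 5.01% of all genes, the edgeR likelihood-ratio test 1 against 1.46%, and limma-voom 0 against 0.034%. RT1-CE16 passed an adjusted p of 0.1, as did 1.9% of all genes. At an unadjusted p below 0.05 there were 4 members of 38 (RT1-CE16, RT1-DOb, Tapbp and Cd1d1), or 0 lower and 4 higher in diabetic libraries, against 18.9% of all genes tested (8.94% higher and 10% lower). That count was 2 without control 4 or without diabetic 4, 6 without control 3, and 7 without controls 4 and 6 together. The groups did not overlap for 3 members (RT1-CE16, RT1-DOb and Cd80), against 8.44% of all genes tested (4.27% higher and 4.16% lower). These shares lie below or near the background.

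**Figure D1:**
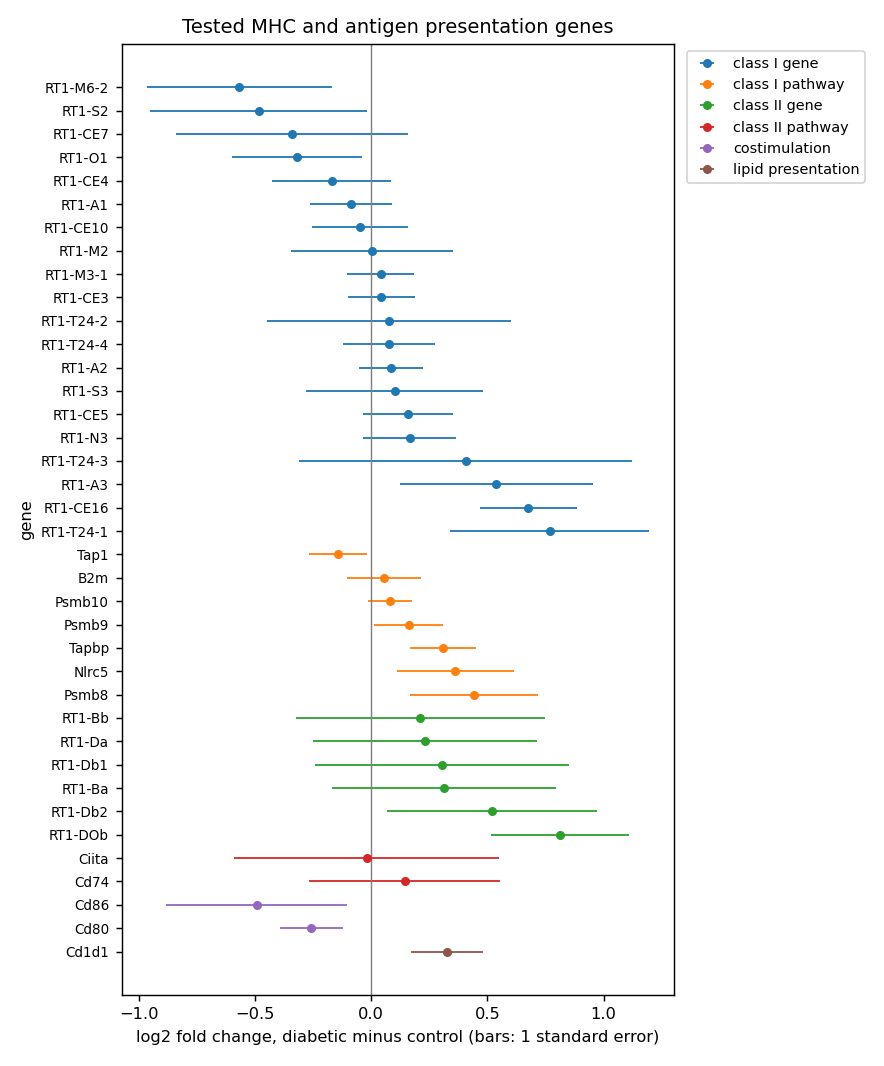
Log2 fold change (x axis, diabetic minus control) of the 38 tested members (y axis), coloured by class, with bars of 1 standard error. Class I genes run from -0.57 to 0.77 on both sides of 0, and the 6 class II genes from 0.21 to 0.81, with standard errors of 0.30 to 0.54.

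The classes were set side by side. The 20 tested class I genes had a median log2 fold change of 0.060, with 13 above and 7 below 0, and the 7 class I pathway genes a median of 0.16. The 6 tested class II genes had a median of 0.31, with 6 above 0, and the median of all genes tested was 0.0017. The difference between the classes was not tested. The sign of the class II median rested on diabetic 1: without that library it was -0.16. It was 0.13 without control 3 and 0.61 without control 6. The class I median lay between -0.020 (without diabetic 1) and 0.16 (without control 6) when 1 library was left out, and it was also below 0 without diabetic 4 (-0.0072).

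The chains of the classical class II molecules were present in every library, and their group means differed by less than the SD within either group. Cd74 (ENSRNOG00000018735, Rnor_6.0 chromosome 18, 56071478 to 56080849, plus strand), the invariant chain, was at 1027, 522, 774, 937 and 1866 CPM in controls 1, 3, 4, 5 and 6 and at 1687, 766, 1256 and 825 CPM in diabetic 1, 2, 4 and 5. Control 6 was highest and control 3 lowest, and the diabetic values lay inside the control range. It averaged 1025 ± 508 CPM (SD) over the 5 controls and 1133 ± 429 CPM (SD) over the 4 diabetic libraries, a log2 fold change of 0.14 (SE 0.41, edgeR adjusted p = 0.867). Its sign turned without control 3 (-0.022) or without diabetic 1 (-0.11).

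The alpha and beta chains of the RT1-D molecule, the rat counterpart of HLA-DR, ran in the same order at their ends. RT1-Da (chromosome 20, 4127644 to 4132616, minus strand) was at 115, 52.1, 74.7, 77.3 and 196 CPM in controls 1, 3, 4, 5 and 6 and at 218, 83.0, 101 and 81.2 CPM in diabetic 1, 2, 4 and 5. RT1-Db1 (chromosome 20, 4087687 to 4097190, plus strand) was at 87.2, 31.3, 42.3, 66.6 and 106 CPM in the controls and 169.9, 54.9, 62.3 and 41.6 CPM in the diabetic libraries, in the same order. Diabetic 1 was above every control for both genes, and the other diabetic libraries lay among the controls. RT1-Db2, a related beta chain whose reads can be shared with RT1-Db1, was at 3.04 to 10.6 CPM in control libraries, 18.8 CPM in diabetic 1 and 5.52 to 7.17 CPM in diabetic 2, 4 and 5.

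The RT1-B molecule, the counterpart of HLA-DQ, did likewise. RT1-Ba was at 51.6, 22.5, 33.6, 39.3 and 84.4 CPM in the controls and at 100.3, 43.1, 56.1 and 29.6 CPM in diabetic 1, 2, 4 and 5. RT1-Bb (chromosome 20, 4043741 to 4049711, plus strand) was at 50.4 to 226 CPM in the controls, 274 CPM in diabetic 1 and 93.7 to 107 CPM in diabetic 2, 4 and 5. Across Cd74 and these 5 chains, control 3 was the lowest of the 9 libraries for 6 of 6 genes, diabetic 1 the highest for 5 of 6, and control 6 the highest control for 5 of 6. The log2 fold changes of the 5 chains lay between 0.21 (RT1-Bb, SE 0.54) and 0.52 (RT1-Db2, SE 0.45), with edgeR adjusted p-values of 0.509 to 0.852. Without diabetic 1 the values were -0.11 for RT1-Ba, -0.32 for RT1-Bb, -0.22 for RT1-Da, -0.33 for RT1-Db1 and -0.051 for RT1-Db2, so the direction of each rests on that library.

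**Figure D2:**
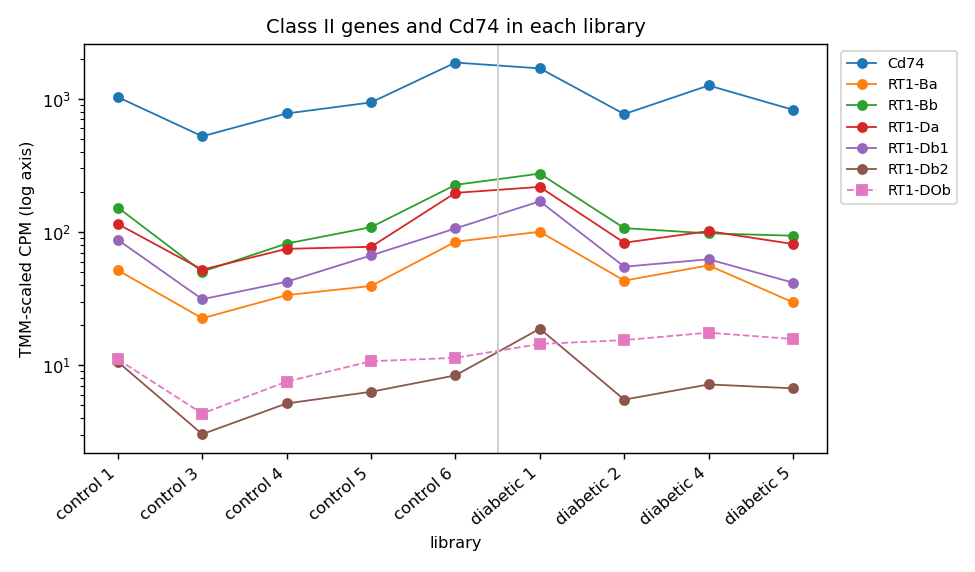
TMM-scaled CPM (y axis, log scale) of Cd74, 5 class II chain genes and RT1-DOb (dashed, squares) in each of the 5 control and 4 diabetic libraries (x axis). The solid lines dip together at control 3 and peak at control 6 and diabetic 1, while RT1-DOb sits at 14.4 to 17.5 CPM in the 4 diabetic libraries and at 4.34 to 11.4 CPM in the controls.

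Ciita, the class II coactivator, was at the edge of detection, with 7 to 54 counts per library. It was at 5.10, 0.955, 1.29, 2.14 and 4.00 CPM in controls 1, 3, 4, 5 and 6 and at 4.45, 3.58, 1.12 and 1.301 CPM in diabetic 1, 2, 4 and 5. Control 3 was again the lowest library, and controls 1 and 6 and diabetic 1 the highest 3. The log2 fold change was -0.020 (SE 0.57, edgeR adjusted p = 0.990), and its sign turned under several scalings (0.055 with upper-quartile factors, 0.11 without factors).

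RT1-DOb, the beta chain of the DO molecule that restrains DM, had another order among the diabetic libraries than the chains above, and like them was lowest in control 3. It was at 11.1, 4.34, 7.53, 10.7 and 11.4 CPM in controls 1, 3, 4, 5 and 6 and at 14.4, 15.4, 17.5 and 15.7 CPM in diabetic 1, 2, 4 and 5. All 4 diabetic libraries lay above all 5 controls, and diabetic 1 was the lowest of the diabetic libraries. It averaged 9 ± 3.02 CPM (SD) over the 5 controls and 15.8 ± 1.296 CPM (SD) over the 4 diabetic libraries, for a log2 fold change of 0.81 (SE 0.30, edgeR adjusted p = 0.126), on 50 to 157 counts per library. The DESeq2 Wald test gave an adjusted p of 0.0466 (0.0466 to 0.462 over all alternatives), and the authors' deposited table gave a log2 fold change of 0.93 with an adjusted p of 0.0340. Its partner chain RT1-DOa had 0 to 2 counts in every library.

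The DM genes read differently in the 2 kinds of deposited data. In the count table RT1-DMa had 1 count in control 1 and 0 in the other 8 libraries, and RT1-DMb had 1 to 10 counts. In the authors' StringTie assemblies RT1-DMa (ENSRNOG00000047864, chromosome 20, 5240975 to 5244386, minus strand) was at 52.6 ± 10.8 TPM (a share of transcripts that corrects for length; SD, n = 5) in control and 59.2 ± 5.38 TPM (SD, n = 4) in diabetic libraries. RT1-DMb (ENSRNOG00000051002, chromosome 20, 5227045 to 5234290, minus strand) was at 113 ± 23.9 TPM (SD, n = 5) and 112 ± 30.8 TPM (SD, n = 4). Transcripts at both DM loci were thus assembled in all 9 libraries although the count table lists them near 0, and the cause was not tested. Tap2 had 7 counts in control 1, 4 in diabetic 1, 4 in diabetic 2 and 0 in the other 6 libraries, and no transcript of that symbol was matched in the assemblies.

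Levels were compared between genes in the assemblies only, on the TPM scale, by summing the transcripts on the same strand at each locus. RT1-DOa was listed at 0 TPM in all 9 libraries. Of the other 6 class II genes so measured Cd74 was the most abundant in all 9 libraries, at 264 to 1155 TPM. It exceeded RT1-DMb by a median of 4.3-fold, RT1-DMa by 9.05-fold, RT1-Da by 13.4-fold, RT1-Db1 by 14.1-fold and RT1-Bb by 15.9-fold. From the lowest to the highest library Cd74 spanned 4.38-fold, RT1-Da 4.56-fold, RT1-Db1 4.22-fold and RT1-Bb 6.5-fold, and the DM genes 1.86-fold (RT1-DMa) and 1.87-fold (RT1-DMb). RT1-Da, RT1-Db1 and RT1-Bb overlapped each other in TPM, so their order does not exceed their spread. Such sums depend on how completely a locus was assembled: B2m spanned 8.5-fold in TPM and 1.75-fold in CPM.

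**Figure D3:**
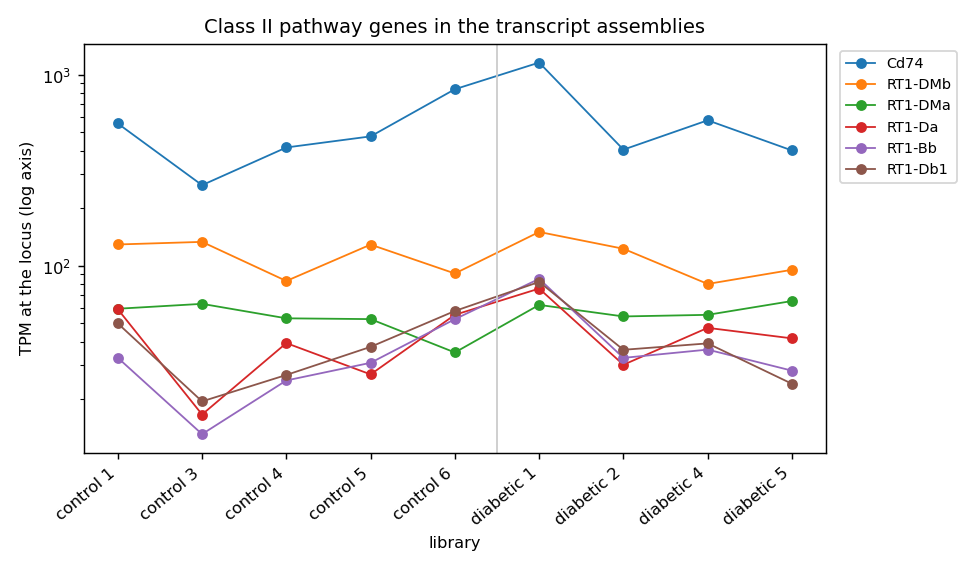
TPM at the locus (y axis, log scale) of Cd74, the DM genes and 3 class II chains in each library (x axis) from the transcript assemblies. Cd74 lies on top in every library, and RT1-DMa and RT1-DMb stay between 35.1 and 149.9 TPM where the chains, like Cd74, are low at control 3 and highest at diabetic 1.

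Class II molecules are also made by other myeloid cells and by B cells that a CD11b sort or its debris could hold, so markers of those cells are given beside these results. In bulk RNA, more cells of a type and more RNA per cell cannot be told apart. The border macrophage list (6 of 7 genes in the table, among them Cd163, Mrc1 and Lyve1) summed to 380 to 810 CPM in control and 664 to 1452 CPM in diabetic libraries. It was highest in diabetic 1, but control 3, lowest in class II, had the highest sum of the controls, and control 6 had 447 CPM. The dendritic cell list (9 genes) summed to 39.3 to 73.0 CPM in control and 75.5 to 174 CPM in diabetic libraries, again highest in diabetic 1. Most of that sum was Clec10a, a lectin that macrophages also express (42.7 ± 14.3 CPM over the 5 controls and 93.1 ± 42.5 CPM over the 4 diabetic libraries, 154 CPM in diabetic 1). Flt3 was at 0.434 to 1.29 CPM in control and 0.92 to 4.20 CPM in diabetic libraries, Zbtb46 at 7.64 to 10.7 and 8.89 to 13.7 CPM, and Cd209a and Siglech had 0 counts in every library. The B cell list (5 genes) summed to at most 3.19 CPM, with Ms4a1 and Pax5 at 0 counts, and the T and NK cell list (4 of 5 genes in the table) to at most 0.307 CPM. The monocyte list (4 of 6 genes in the table, with Ccr2 at 0 counts) summed to 3.48 to 6.90 CPM in control and 8.99 to 23.8 CPM in diabetic libraries, and the neutrophil list (5 genes) to 0.643 to 11.2 and 19.5 to 77.3 CPM. Cd163, a scavenger receptor of border macrophages, averaged 57.4 ± 22.1 CPM (SD) over the 5 controls and 168 ± 64.4 CPM (SD) over the 4 diabetic libraries, with an edgeR adjusted p of 0.0895. At an adjusted p of 0.05 the DESeq2 Wald test passed 3 border macrophage, 2 monocyte, 2 neutrophil, 1 dendritic cell and 1 microglia marker, and the edgeR likelihood-ratio test 1, 1, 2, 0 and 0. The part of these cells in the class II values and in RT1-DOb was not tested.

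The classical class I heavy chains RT1-A1 and RT1-A2 were more even. RT1-A2 (chromosome 20, 5375650 to 5377440, plus strand) and RT1-A1 belong to the classical region. RT1-A2 was at 188 to 280.4 CPM in control libraries (median 199) and 196 to 259.9 CPM in diabetic libraries. RT1-A1 was at 191, 178, 174, 180.1 and 285 CPM in controls 1, 3, 4, 5 and 6 and at 205, 175, 232 and 147 CPM in diabetic 1, 2, 4 and 5. The groups overlapped for both genes, and control 6 was the highest library for each. The log2 fold changes were 0.086 (SE 0.14, edgeR adjusted p = 0.745) for RT1-A2 and -0.087 (SE 0.18, edgeR adjusted p = 0.803) for RT1-A1, and the latter turned to 0.044 without factors and 0.043 without controls 4 and 6. RT1-A3 was low and not even, at 2.65 to 9.36 CPM in control (a 3.54-fold range) and 6.52 to 11.5 CPM in diabetic libraries.

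RT1-CE16, a class I gene of the CE region outside the classical one, had the lowest p of all members. It was at 66.0, 48.4, 65.6, 53.7 and 63.2 CPM in controls 1, 3, 4, 5 and 6 and at 69.3, 90.6, 126 and 93.5 CPM in diabetic 1, 2, 4 and 5. All 4 diabetic libraries lay above all controls, with diabetic 1 close to the upper controls and diabetic 4, the shallowest library, highest. It averaged 59.4 ± 7.93 CPM (SD) over the 5 controls and 95.0 ± 23.6 CPM (SD) over the 4 diabetic libraries, for a log2 fold change of 0.68 (SE 0.21, edgeR adjusted p = 0.0927). The DESeq2 Wald test gave an adjusted p of 0.0101 and the edgeR likelihood-ratio test 0.0346, within a range of 0.0101 to 0.452 over all alternatives. When 1 library was left out, the log2 fold change lay between 0.51 (without diabetic 4) and 0.80, and with the replicate number as a block the edgeR adjusted p was 0.452. The authors' deposited table gave a log2 fold change of 0.79 with an adjusted p of 0.00479. Reads can be shared between class I genes of the CE and A regions.

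**Figure D4:**
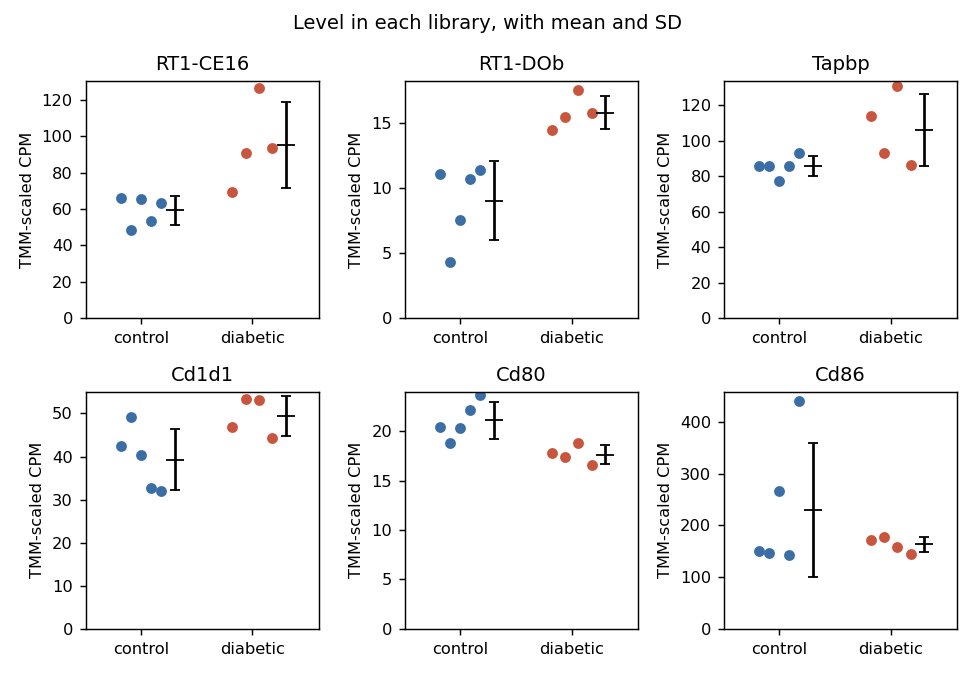
TMM-scaled CPM (y axis, from 0) in each control (blue) and diabetic (red) library for 6 members, with the mean and SD in black. The groups are apart for RT1-CE16, RT1-DOb and, by a narrow margin, Cd80. Cd86 is spread by controls 4 and 6 at 266 and 441 CPM.

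Other class I genes of the CE region were highest in control 6, and RT1-CE7 was high in control 4 too, the 2 libraries that stood apart on the cell isolation response list. The part of that response was not tested. RT1-CE7 (chromosome 20, 4697758 to 4698757, minus strand) was at 88.7, 72.6, 213, 102 and 339.5 CPM in controls 1, 3, 4, 5 and 6 and at 119 to 156 CPM in diabetic libraries. RT1-CE4 was at 61.6 to 89.6 CPM in controls 1, 3, 4 and 5, 141 CPM in control 6 and 64.7 to 80.7 CPM in diabetic libraries, and RT1-CE10 at 94.4 to 120.3, 188 and 99.8 to 143 CPM. For the 3 genes control 6 was the highest library. Their log2 fold changes of -0.34, -0.17 and -0.050 (SE 0.50, 0.26 and 0.21, edgeR adjusted p = 0.720 to 0.912) became 0.12, 0.10 and 0.16 without control 6, and 0.54, 0.24 and 0.23 without controls 4 and 6. Over the 20 tested class I genes control 6 was the highest library for 12.

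RT1-S3 and RT1-T24-3, class I genes of the regions beyond the classical one, followed another order. RT1-S3, a counterpart of HLA-E, was at 94.7, 157, 74.3, 61.9 and 112 CPM in controls 1, 3, 4, 5 and 6 and at 152, 124, 104 and 48.0 CPM in diabetic 1, 2, 4 and 5. RT1-T24-3 was at 15.5, 33.3, 8.82, 7.498 and 8.65 CPM in the controls and 33.1, 26.5, 15.8 and 3.30 CPM in the diabetic libraries. In CPM, control 3 and diabetic 1 were the highest 2 libraries for both, and diabetic 5 the lowest. The TPM at the locus gave another order. RT1-T24-3 was at 19.0 TPM in control 3, 43.9 TPM in diabetic 1 and 44.6 TPM in diabetic 5. RT1-S3 was at 0 TPM in those libraries, 52.6 TPM in control 6 and 57.0 TPM in diabetic 4. The cause of the disagreement was not tested. The interferon-induced list (14 genes) summed to 1231 CPM in control 3, 1224 CPM in diabetic 1 and 468 CPM in diabetic 5, but it was higher in controls 4 and 6 (1366 and 1820 CPM). Its genes differed: Mx2 had the same ends as RT1-T24-3 (403, 246 and 29.2 CPM in those 3 libraries), whereas Cxcl10 was lowest in control 3 and highest in diabetic 5 (20.8 and 84.4 CPM). Both were chosen after their values were seen. The part of interferon in the levels of RT1-S3 and RT1-T24-3 was not tested. The log2 fold changes were 0.10 (SE 0.38) and 0.41 (SE 0.72), with edgeR adjusted p-values of 0.902 and 0.771.

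**Figure D5:**
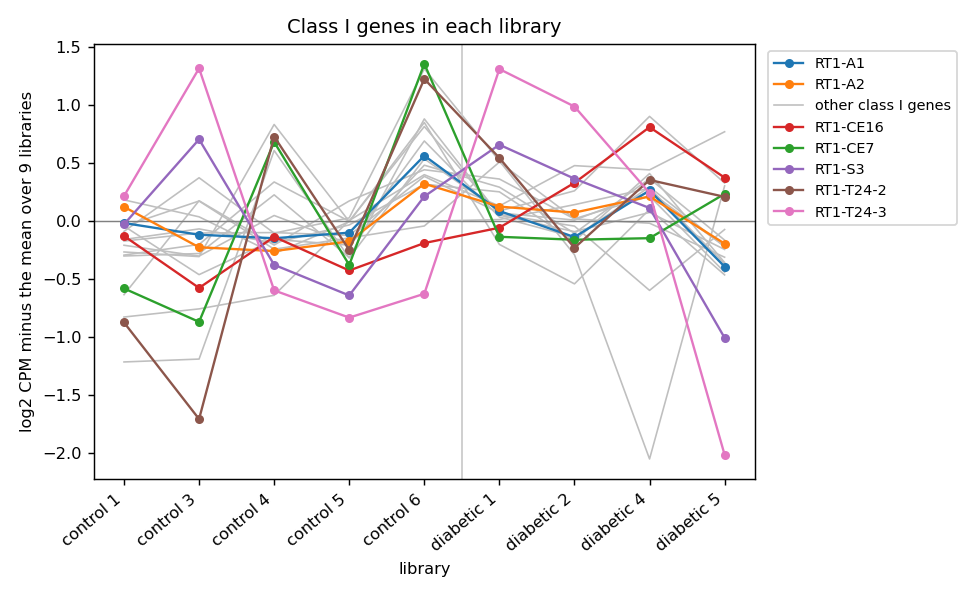
Log2 CPM minus the gene's mean over the 9 libraries (y axis) for the 20 tested class I genes in each library (x axis), with 7 genes in colour and the others in grey. RT1-CE7 and RT1-T24-2 peak at control 6, RT1-S3 and RT1-T24-3 at control 3 and diabetic 1, and RT1-A1 and RT1-A2 stay closer to 0.

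The spread within the groups differed between the classes. Among control libraries the coefficient of variation (SD over mean CPM) had a median of 32.9% over the 20 class I genes, 48.9% over the 6 class II genes and 14.95% over the 7 class I pathway genes, against 18.4% over all genes tested. Among diabetic libraries the medians were 19.3%, 57.6% and 15.2%, against 15.02%. The range among controls exceeded 2-fold for 6 of 6 class II genes and 11 of 20 class I genes. These spreads were not tested, and low counts add to them.

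The class I pathway genes differed in how steady they were: among controls Tapbp varied least (6.60% coefficient of variation), and Psmb8 (29.6%) and Nlrc5 (29.1%) more than most genes. B2m, the light chain, averaged 911 ± 206 CPM (SD) over the 5 controls and 946 ± 143 CPM (SD) over the 4 diabetic libraries (log2 fold change 0.055, SE 0.16, edgeR adjusted p = 0.870). The locus TPM gave other group values for some class I genes: B2m had 225 ± 207 TPM (SD, n = 5) in control and 492 ± 42.1 TPM (SD, n = 4) in diabetic libraries, Tap1 20.5 ± 7.13 and 34.5 ± 11.3 TPM, and RT1-A2 38.8 ± 31.4 and 117 ± 56.4 TPM. RT1-T24-3 had 19.1 ± 5.31 TPM (12.0 to 27.0) in control and 39.1 ± 8.02 TPM (27.4 to 44.6) in diabetic libraries. Means were lower in diabetic libraries for RT1-CE7 (11.7 ± 7.85 and 6.64 ± 11.2 TPM), RT1-M3-1 (5.69 ± 6.56 and 1.27 ± 0.689 TPM) and RT1-T24-2 (38.7 ± 21.1 and 28.0 ± 33.2 TPM). Neither the differences in TPM nor the cause of the disagreement with the counts was tested. Tapbp, which bridges the peptide transporter and the empty class I molecule, was at 85.6, 85.8, 77.4, 85.5 and 93.3 CPM in controls 1, 3, 4, 5 and 6 and at 114, 93.3, 131 and 86.1 CPM in diabetic 1, 2, 4 and 5. Diabetic 1 and 4 lay above all controls and the other 2 among them or at their upper edge, a log2 fold change of 0.31 (SE 0.14, edgeR adjusted p = 0.212). Tap1, a transporter subunit, was at 81.5 ± 12.2 and 73.8 ± 5.23 CPM (log2 fold change -0.14, SE 0.12). Nlrc5, the class I coactivator, was at 4.39 to 10.2 CPM in control and 7.87 to 11.2 CPM in diabetic libraries (log2 fold change 0.36, SE 0.25, edgeR adjusted p = 0.401).

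The immunoproteasome subunits replace constitutive ones and favour class I peptides. Psmb8 was at 6.05, 14.4, 9.47, 12.3 and 12.0 CPM in controls 1, 3, 4, 5 and 6 and at 14.6, 10.0, 19.9 and 14.6 CPM in diabetic 1, 2, 4 and 5, so 3 of 4 diabetic libraries lay above all controls. Its log2 fold change was 0.44 (SE 0.28, edgeR adjusted p = 0.350). Psmb9 had 0.16 (SE 0.15) and Psmb10 0.080 (SE 0.095), with overlapping groups and edgeR adjusted p-values of 0.538 and 0.647. Of the wider proteasome list (5 of 6 genes tested, the constitutive subunits Psmb5, Psmb6 and Psmb7 and the activators Psme1 and Psme2) 0 passed an unadjusted p of 0.05, and the median log2 fold change was 0.073.

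Cd80 and Cd86 are the ligands that costimulate T cells through CD28. Cd80 was at 20.4, 18.8, 20.3, 22.2 and 23.6 CPM in controls 1, 3, 4, 5 and 6 and at 17.8, 17.4, 18.8 and 16.5 CPM in diabetic 1, 2, 4 and 5. The groups did not overlap, by less than 0.1 CPM between control 3 and diabetic 4, and the log2 fold change of -0.26 (SE 0.14) had an edgeR adjusted p of 0.276. Cd86 (chromosome 11, 67082193 to 67118795, plus strand) was at 151, 147, 266, 143 and 441 CPM in the controls and 172, 178, 158 and 145 CPM in the diabetic libraries. Controls 4 and 6 stood out, and the log2 fold change of -0.49 (SE 0.39, edgeR adjusted p = 0.466) became 0.14 without them. Cd1d1, which presents lipids to NKT cells, was at 42.3, 49.1, 40.2, 32.7 and 32.0 CPM in the controls and 46.8, 53.3, 53.1 and 44.2 CPM in the diabetic libraries (log2 fold change 0.33, SE 0.16, edgeR adjusted p = 0.234), and 2 of 4 diabetic libraries lay above all controls. Its locus TPM went the other way, at 15.9 ± 8.9 TPM (SD, n = 5) in control and 9.17 ± 3.41 TPM (SD, n = 4) in diabetic libraries. The difference in TPM was not tested.

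Other genes of the pathways were read from lists. No gene of them passed an adjusted p of 0.05 in edgeR's quasi-likelihood test. The DESeq2 Wald test passed 2 genes of endosomal processing (Ctsd and Sppl2a), 3 regulators (Ifngr2, Jak1 and Jak2) and 1 ligand (Cd276), where it passed 5.01% of all genes. Of the 3 regulators Ifngr2 was higher in diabetic libraries, and Jak1 and Jak2 were lower (edgeR log2 fold changes 0.36, -0.34 and -0.73). The edgeR likelihood-ratio test passed Cd276 alone of these, where it passed 1.46% of all genes. Of 8 genes of class I peptide loading, 1 was higher and 2 were lower by an unadjusted p of 0.05 (background 8.94% higher and 10% lower). The higher gene was Fcgrt, a class I-like receptor that pairs with B2m (482 ± 56.6 and 608 ± 90.4 CPM). The lower ones were Erap1, which trims peptides in the endoplasmic reticulum (148 ± 18.3 and 120.3 ± 3.83 CPM), and the chaperone Canx (1293 ± 115 and 1094 ± 35.3 CPM). Of 9 genes of endosomal processing 0 were higher and 3 lower: Sppl2a, which cleaves the remnant of Cd74 (366 ± 32.5 and 290.5 ± 10.9 CPM, edgeR adjusted p = 0.105), and the proteases Ctsd and Ctsl (log2 fold changes -0.23 and -0.37). The median log2 fold changes of these lists were -0.086 and -0.14.

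Among regulators of MHC transcription 15 of 16 genes were tested, with a median log2 fold change of -0.12. By an unadjusted p of 0.05 there were 2 higher and 3 lower (background 8.94% higher and 10% lower). The higher genes were Ifngr2 and Rfxank (log2 fold change 0.41, no overlap). The lower ones were Jak1 (-0.34, no overlap), Jak2 (-0.73) and Nfya (-0.53). Controls 4 and 6 were the highest 2 libraries for each of these. Jak1 was at 660.5 and 615 CPM there, 523 to 595 CPM in the other controls and 429 to 513 CPM in diabetic libraries. Jak2 was at 198 and 209 CPM, then 101 to 142 and 78.6 to 104 CPM. Nfya was at 159 and 216 CPM, then 94.0 to 138 and 86.7 to 113 CPM. Ifngr2, a subunit of the interferon-gamma receptor, averaged 277 ± 7.71 CPM (SD) over the 5 controls and 357 ± 32.3 CPM (SD) over the 4 diabetic libraries, with no overlap, a log2 fold change of 0.36 (SE 0.11) and an edgeR adjusted p of 0.0895. Of the other costimulatory and inhibitory ligands 5 of 7 were tested. Cd276 was at 227 ± 34.8 and 142 ± 16.1 CPM, with no overlap, a log2 fold change of -0.68 (SE 0.18) and an edgeR adjusted p of 0.0608.

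The authors' deposited table listed 39 members, of which 2 (RT1-CE16 and RT1-DOb) had an adjusted p below 0.05, against 2.1% of its 12069 genes. At an unadjusted p below 0.05 the authors' deposited table listed 5 members, against 15.2% of its genes. Its log2 fold changes were computed on a scale whose median over all genes was 0.12, and for Cd74 the authors' deposited table gave 0.30 with an adjusted p of 0.716.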

How the data were processed

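RNA was preamplified with a SmartSeq kit and sequenced as Nextera XT libraries, per the labels' protocols. The authors deposited raw read counts per gene symbol. The submitters' processing notes name bcl2fastq 2.18.0.12, TopHat2 2.0.14, StringTie 1.2.4, edgeR and Rnor_6.0; which program counted reads, and whether by strand, is not given in the sources used here, so overlapping and similar genes can share or lose reads. A second table holds the authors' deposited log2 fold changes and p-values without a stated model. Its log2 fold changes lay within 0.0568 of edgeR values computed without factors (diabetic minus control), with the same sign for 99.9% of genes. The assemblies hold TPM for each transcript, which the authors scaled within a library, and 8.63% to 10.4% of their transcripts carry a reference identifier, per the file headers made by StringTie. Coordinates on Rnor_6.0 are the span of these reference transcripts. Locus TPM sums transcripts on the same strand with at least 50% of their exonic bases in that span.

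Samples were grouped by title. Genes were filtered by filterByExpr at a minimum count of 10 and a total of 15, leaving 11748 of 28343. TMM scaling was followed by the quasi-likelihood test of edgeR 4.0.16 (robust, no covariates) in R 4.3.3, with Benjamini-Hochberg adjustment over all genes and a threshold of 0.05. The SE of a log2 fold change is its size over the normal quantile of its p. Alternatives used DESeq2 1.42.0, limma 3.58.1, other factors, no filter, a replicate block, and fewer libraries. TPM tests used log2(TPM + 1). No 2 libraries agreed within sampling noise (chi-square per degree of freedom at least 11.7).

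The members and lists were chosen with earlier results of these data known. Named genes are the 13 members without the RT1 prefix, the classical class I and the class II genes, the 5 other RT1 genes with the highest CPM, the 3 members per direction with the lowest p, and of each list those at an adjusted p below 0.1 or else the 3 lowest. RT1-T24-2, RT1-T24-3, RT1-S2, Jak1, Jak2, Rfxank, Nfya, Cd274, Mx2 and Cxcl10 were added after their values were seen.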

Additional observations from a re-analysis of the deposited data

Results flagged for a closer look

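Among the 27 named members that were tested, the level of each was examined in both groups, 54 groups of 4 or 5 libraries in all, for a library whose gap to its nearest neighbour took up most of the range. Chance alone would set apart about 1 in 20 groups, and 7 stood apart. Diabetic 1 was far above the other diabetic libraries for RT1-Bb (274 CPM, next 107), RT1-Da (218 CPM, next 101), RT1-Db1 (169.9 CPM, next 62.3) and RT1-Db2 (18.8 CPM, next 7.17). These 4 genes share that library, so they are not independent. Control 6 was far above the other controls for RT1-A1 (285 CPM, next 191) and RT1-CE10 (188 CPM, next 120.3). Diabetic 5 was above the other diabetic libraries for RT1-CE7 (156 CPM, next 121), whose values there lay close together (119 to 121 CPM).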

How the results depend on the processing

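The number of genes past an adjusted p of 0.05 was 8 of all tested, 31 with upper-quartile factors, 29 without factors, 42 without the filter, 588 by the DESeq2 Wald test (583 without its filter, a run made first and replaced after its result was seen), 171 by the likelihood-ratio test, 4 by limma-voom, and 0 without controls 4 and 6 or with the replicate block. Members past it were 0, then 2 by DESeq2 with or without its filter (RT1-CE16 and RT1-DOb) and 1 by the likelihood-ratio test. Members past an unadjusted p of 0.05 were 4, 2 by the likelihood-ratio test and 7 without controls 4 and 6. On the class I side they were 2, 4 without factors, 1 by the likelihood-ratio test and 6 without controls 4 and 6, and on the class II side 1, and 2 with the replicate block. Leaving out 1 library gave 0 to 75 genes in all (75 without control 1, 1 without control 3 or 5, 2 without diabetic 2, 0 without control 4, diabetic 1 or diabetic 4), 0 members past an adjusted p of 0.05, 2 to 6 members and 1 to 3 on the class I side (1 without control 4, diabetic 1 or diabetic 4) at an unadjusted p below 0.05, with 1 on the class II side each time. Of the 8 genes past the threshold 62.5% were higher in diabetic libraries, against 87.1% with upper-quartile factors, 96.6% without factors, 69.0% without the filter, 79.5% by the likelihood-ratio test, 50% by limma-voom, 49.1% by DESeq2 (47.2% without its filter) and 42.7% without control 1. The class II median log2 fold change ran from -0.16 (without diabetic 1) to 0.61 (without control 6) and that of class I from -0.020 to 0.16.

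Of 522 results of 27 named members under alternatives, 479 kept direction and side of the threshold, 5 passed it (RT1-CE16 and RT1-DOb) and 38 changed sign, 22 of them on leaving out a library. Those ranged over the libraries left out from -0.11 to 0.48 for Cd74, -0.40 to 0.36 for Ciita, -0.054 to 0.20 for B2m, -0.00092 to 0.23 for Psmb9, -0.20 to 0.070 for RT1-A1, -0.11 to 0.64 for RT1-Ba, -0.32 to 0.54 for RT1-Bb, -0.22 to 0.60 for RT1-Da, -0.33 to 0.53 for RT1-Db1, -0.051 to 0.75 for RT1-Db2, -0.53 to 0.12 for RT1-CE7, -0.16 to 0.16 for RT1-CE10, -0.12 to 0.34 for RT1-S3 and -0.26 to 0.10 for RT1-CE4. The remaining changes of sign were Ciita by limma-voom (0.11), with upper-quartile factors (0.055) and without factors (0.11), Psmb9 by TPM per reference name (-1.49; its named transcripts were at or below 0.202 TPM in 5 of 9 libraries, while its locus TPM was 38.0 ± 12.3 in control and 48.8 ± 10.4 in diabetic libraries), RT1-A1 without factors (0.044), RT1-CE10 without factors (0.092) or with upper-quartile factors (0.039), and, without controls 4 and 6, Cd86 (0.14), RT1-A1 (0.043), RT1-CE10 (0.23), RT1-CE4 (0.24) and RT1-CE7 (0.54). With the replicate block they were RT1-A1 (0.075), RT1-CE10 (0.15), RT1-CE4 (0.091) and RT1-CE7 (0.083). The cause was not tested. The groups share the numbers 1, 4 and 5 only, and same-numbered libraries deviated together for number 1 (correlation 0.20) but not for 4 (-0.11) or 5 (0.016), so the block was not taken as a pairing. Over all genes the log2 fold changes had a median of 0.12 without factors, and with upper-quartile factors 0.077. TPM by reference name alone was not carried through as a level, because few transcripts carry a name. Genes with few counts in some library, among them Ciita and RT1-M6-2, are limited by depth.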

Other observations

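The interferon-induced list (14 genes) had a median log2 fold change of -0.094. By an unadjusted p of 0.05 it had 0 higher and 2 lower members (Gbp2 and Gbp5), near the background of 8.94% higher and 10% lower. Gbp2, a guanylate-binding protein, was at 86.6, 106, 580.1, 104 and 1038 CPM in controls 1, 3, 4, 5 and 6 and at 74.9 to 94.0 CPM in diabetic libraries, so its log2 fold change of -2.21 (SE 1.08, edgeR adjusted p = 0.243) rested on controls 4 and 6. Cd274, the gene of the inhibitory ligand PD-L1, chosen after its values were seen, was at 372 and 576 CPM in the same 2 controls, 4.63 to 38.2 CPM in the other controls and 9.41 to 44.2 CPM in diabetic libraries. RT1-T24-2 had 10.3 and 14.6 CPM in controls 4 and 6 against 1.91 to 5.25 CPM in the other controls. Its diabetic libraries lay between these, at 5.31 to 9.09 CPM.

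RT1-M6-2, a class I gene of the M region, had the most negative log2 fold change of the tested members (-0.57, SE 0.40, edgeR adjusted p = 0.408), on 13 to 32 counts per library. RT1-S2 was at 1.12 CPM in diabetic 4, on 7 counts, and at 3.78 to 11.5 CPM in the other 8 libraries. The members with 0 counts in every library were the class I genes RT1-M1-4 and RT1-M1-5, the class I rows RT1-M1-1-ps, RT1-M10-2-ps, RT1-M10-3-ps, RT1-M3-2-ps and RT1-P2-ps1, and the class II gene RT1-Ha.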
